A study of Mus musculus with 3 samples.

Results

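The lung of mice carrying a subcutaneous tumour of LLC, the Lewis lung carcinoma line, was compared with normal mouse lung. In the LLC-bearing lung sample, genes made mainly by the liver, genes of neutrophils and monocytes and a set of acute-phase genes had higher signals than in the control lung. Most measured genes on a joint list of heart and skeletal muscle genes had lower signals, as did some genes of B lymphocytes. Genes that define the alveolus were at nearly equal levels. The comparison took 2 of the 3 Affymetrix arrays of the series, by their labels, with all probe sets except the 66 manufacturer controls. Of 12422 probe sets, 8021 were measured, and they gave 6002 of the 8251 genes that have a probe set with 1 gene symbol.

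Total RNA came from frozen lung. The LLC-bearing sample came from a mouse or mice given tumour cells under the skin of the back, a design meant by its authors to model the lung before tumour cells arrive. The control sample is labelled normal lung, and a B16-bearing lung sample (B16 is a mouse melanoma line) was made with the same tumour site. The labels used here give no strain, age, sex, genotype, time after injection or number of animals for any sample, and do not say whether control mice received a mock injection. With 1 array per group there was no replicate check and no test, so each difference describes these arrays and not the conditions. Where B16-bearing values are given, they share the control array with the LLC-bearing comparison.

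Distant tumours are known to change the lung before metastasis by drawing in myeloid cells. S100a8 and S100a9 encode the subunits of calprotectin, a calcium-binding protein abundant in neutrophils and in monocytes recently out of the marrow, and they are the genes this study became known for. The acute-phase response is a change in secreted proteins, such as serum amyloid A and hemopexin, that cytokines induce mainly in liver and for some genes also in lung. In a whole-tissue RNA sample, fewer cells of a type and less RNA per cell cannot be told apart.

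Signals are background-subtracted intensities and can lie below 0. They are given after 1 scale factor per array, and values below 23.6, called the floor, were raised to it for the log2 scale. A probe set counts as measured where the LLC-bearing array, the control array or both exceeded the floor. A probe set above the floor on 1 array alone can lie only on the side of that array. Counts of higher and lower genes therefore follow in part from this rule. Of the 6002 measured genes, 314 were not above the floor in the control lung and 305 in the LLC-bearing lung. Differences are log2 of the LLC-bearing over the control signal. Folds given as "at least" have the dimmer array under the floor, so the true fold may be larger. A gene is represented by its brightest probe set. The arrays resembled each other as wholes: deposited medians were 44.5 for the LLC-bearing array and 44.6 for the control, 20.2% and 20.3% of values were below 0, and 7539 and 7517 probe sets were above the floor. As a sign of RNA quality, the beta-actin controls had a 3'-over-5' ratio of 1.47 and 1.44, and those of Gapdh had 1.001 and 0.957.

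Of the 8021 measured probe sets, 335 (4.18%) were higher in the LLC-bearing lung by 2-fold or more and 235 (2.93%) were lower by as much. By gene, 236 of 6002 (3.93%) were 2-fold or more higher and 178 (2.97%) 2-fold or more lower, and 2993 lay on the higher side at any size. The robust SD of the log2 difference, a spread that a few extreme values do not set, was 0.37 over all measured probe sets. It depended on signal. Among 1989 probe sets whose brighter signal lay between 50 and 100 the robust SD was 0.48, and 8.04% were at least 2-fold higher and 6.69% lower. Among the 1683 between 200 and 500 it was 0.29, with 2.08% higher and 1.19% lower. Among the 252 over 1000 it was 0.16, with 8 past 2-fold on the higher side and 0 on the lower side. The floor leaves almost no room for a 2-fold difference under a signal of 50, where 15 and 12 of 1615 probe sets reached it.

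**Figure D1:**
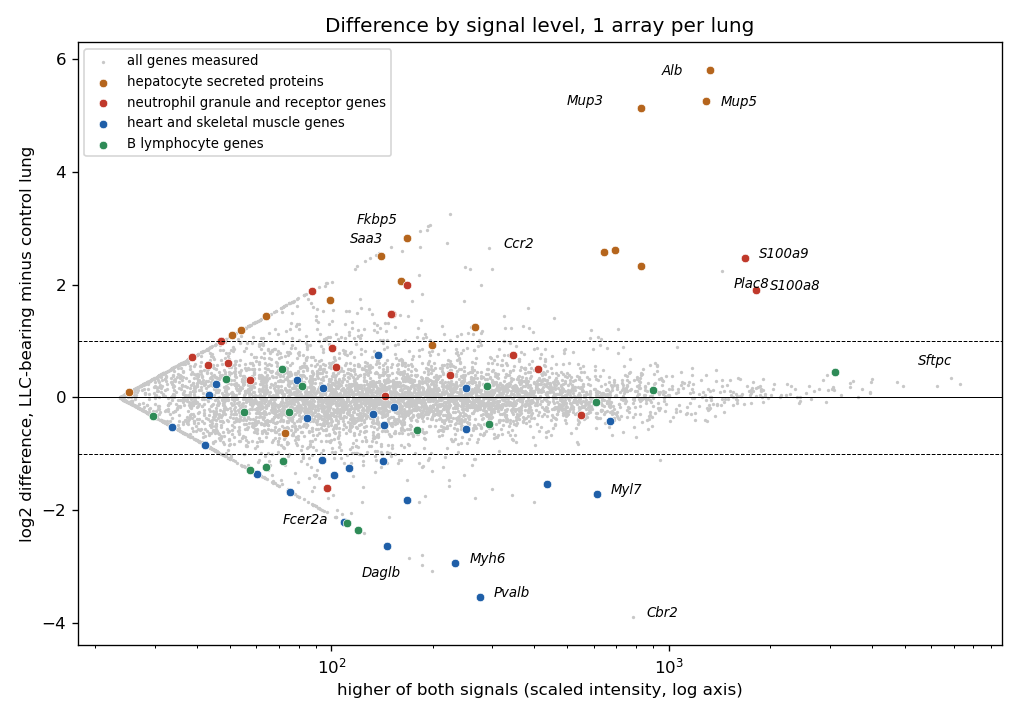
Log2 difference of the LLC-bearing lung from the control lung (y axis) against the brighter of both signals (x axis, log scale) for the 6002 measured genes, 1 array per side, with 4 gene lists in colour; dashed lines mark 2-fold, and the slanted edges at the left are set by the floor. The cloud narrows as signals rise (over probe sets, the robust SD was 0.48 between 50 and 100 and 0.16 over 1000), while Alb, S100a8, S100a9 and Plac8 lie outside it at bright signals and Sftpc lies inside it.

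Among the 1969 genes with a signal of at least 200 on either array, 43 (2.18%) were higher by 2-fold or more and 18 (0.914%) lower. Of these 43 genes, 9 were liver or acute-phase genes, 4 were on the monocyte and macrophage list and 2 on the neutrophil list. Of the 18 lower genes, 4 were on the heart and skeletal muscle list. A gene can reach 200 through the array where it is high alone, as did Alb (−1.2 in the control) and Ccr2 (46.8 in the control). The share of these lists among all 1969 genes was not counted, so the list counts only describe the set. The probe sets over 1000 had a median difference of 0.11, with 74.6% of them above 0, and this median became −0.01 when the arrays were quantile normalized. Under that normalization Sftpc (surfactant protein C) differed by 0.00, Scgb1a1 by −0.08 and Hba-a1 by 0.08.

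The tissue label was checked against markers of lung cells. Sftpc, surfactant protein C of type 2 alveolar cells, had a signal of 7296 in the LLC-bearing lung and of 6206 in normal lung (0.23). Scgb1a1, the secretoglobin of club cells, had 6218 and 5424 (0.20). Ager, a marker of type 1 alveolar cells, had 2270.1 and 2432 (−0.10). Both arrays thus carried strong lung signals, and all 3 genes differed by 1.18-fold or less. Pecam1, the endothelial adhesion molecule CD31, was lower, at 183 against 304 (−0.73), but the 27 measured endothelial genes split into 14 higher and 13 lower with a median of 0.00 (−0.08 to 0.05 over the processing alternatives). Of the 12 measured type 2 alveolar genes, 6 were higher and 6 lower, and of the 9 type 1 alveolar genes, 2 were higher and 7 lower (median −0.10), with none of either list at 2-fold. The 35 fibroblast and matrix genes had a median of 0.06, with 0 at least 2-fold higher and 2 lower (3.93% and 2.97% of all genes were). The blood marker Hba-a1, an alpha globin, had 6858 and 5388 (0.35). Of 14 globin and erythroid genes 10 were higher, 1 of them by 2-fold, beside 3.93% of all genes.

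**Figure D2:**
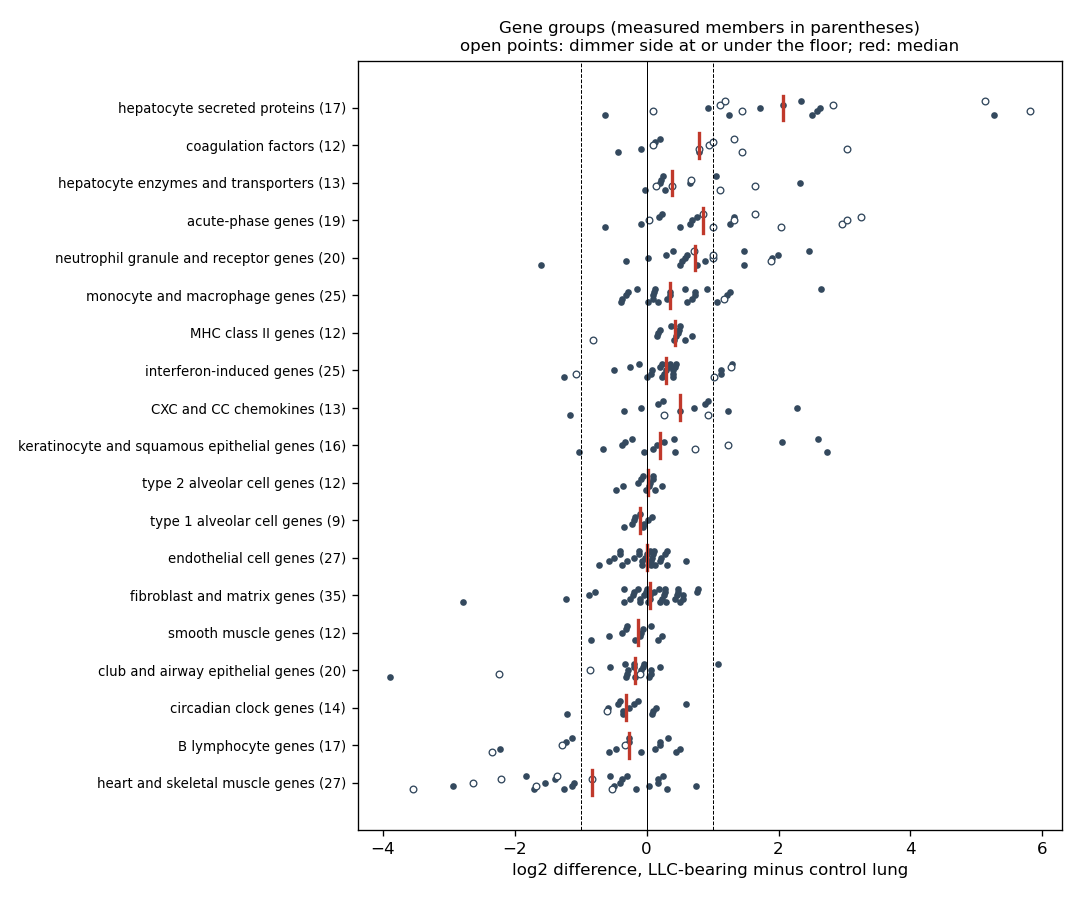
Log2 difference of the LLC-bearing from the control lung for each measured gene (points) of the gene lists, with the list's median as a red bar; open points have the dimmer array at or under the floor, dashed lines mark 2-fold, and there is 1 array per side. Medians run from 2.06 for hepatocyte secreted proteins to −0.84 for heart and skeletal muscle genes, and the alveolar and endothelial lists lie around 0.

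The largest differences were in genes that hepatocytes express. Of 17 measured genes for proteins that hepatocytes secrete, 16 were higher in the LLC-bearing lung and 14 at least 2-fold higher, against 3.93% of all genes, with a median of 2.06. At a floor of 100 the number higher by 2-fold was 7. Their summed signal was 6943 in the LLC-bearing, 823 in the control and 966 in the B16-bearing lung. A further 8 of the 25 on the array were below the floor in both lungs compared. Hepatocyte enzymes (12 of 13 higher, 4 by 2-fold, median 0.38) and coagulation factors (10 of 12 higher, 4 by 2-fold, median 0.80) lay on the same side. In each of these lists 1 gene was higher by 2-fold when the floor was at the 60th percentile. In the control lung 7 of the 17 secreted-protein genes, 5 of the 13 enzymes and 7 of the 12 coagulation factors were not above the floor. These members were measured through the LLC-bearing array alone and could lie only on the higher side, so the side counts are partly set by the filter. Alb, which encodes serum albumin and defines hepatocytes, is shown with Fga (fibrinogen alpha chain) because both were below the floor in the control lung and their promoters carry matches to motifs of liver transcription factors. Saa2 and Saa3, of serum amyloid A, are shown beside them as acute-phase genes with a match to the C/EBP motif but not to the HNF1 motif. Each sequence is the 250 bases before the RefSeq transcription start on GRCm38.p6, 5′ to 3′ along the gene. Capitals mark the HNF1 and C/EBP matches, and matches to other strings that were searched are not marked.
Alb promoter, chr5:90460620-90460869, plus strand: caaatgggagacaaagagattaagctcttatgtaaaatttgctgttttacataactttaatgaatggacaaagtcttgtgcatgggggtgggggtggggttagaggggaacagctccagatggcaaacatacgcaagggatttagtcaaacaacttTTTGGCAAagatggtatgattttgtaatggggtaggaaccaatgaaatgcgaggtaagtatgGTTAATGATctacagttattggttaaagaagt
Fga promoter, chr3:83025903-83026152, plus strand: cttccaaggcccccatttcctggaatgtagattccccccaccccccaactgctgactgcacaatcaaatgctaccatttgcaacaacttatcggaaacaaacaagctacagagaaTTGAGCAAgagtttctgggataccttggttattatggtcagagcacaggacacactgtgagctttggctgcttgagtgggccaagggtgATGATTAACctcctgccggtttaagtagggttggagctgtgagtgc
Saa2 promoter, chr7:46751583-46751832, plus strand: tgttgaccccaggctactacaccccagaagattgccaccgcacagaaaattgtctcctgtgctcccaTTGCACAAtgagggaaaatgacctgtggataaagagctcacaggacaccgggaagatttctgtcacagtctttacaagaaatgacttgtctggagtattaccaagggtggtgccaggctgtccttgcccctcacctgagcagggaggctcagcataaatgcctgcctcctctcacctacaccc
Saa3 promoter, chr7:46715677-46715926, minus strand: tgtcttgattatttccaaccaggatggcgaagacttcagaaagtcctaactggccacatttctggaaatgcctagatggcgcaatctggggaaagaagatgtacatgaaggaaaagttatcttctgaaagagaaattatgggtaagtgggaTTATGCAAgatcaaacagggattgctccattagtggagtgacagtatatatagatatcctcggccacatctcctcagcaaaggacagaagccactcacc

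HNF1, a homeobox factor of hepatocytes, was searched as GTTAATNAT, and C/EBP, a family of liver and myeloid factors, as TTNNGCAA, both on either strand. The letters do not overlap in these promoters. The HNF1 match lies 32 to 24 bases before the start in Alb and 46 to 38 bases before it in Fga, where it reads on the opposite strand. The C/EBP match lies 94 to 87 bases before the start in Alb, 135 to 128 in Fga, 183 to 176 in Saa2 (opposite strand) and 99 to 92 in Saa3. Of 32851 RefSeq promoters 0.737% held the HNF1 letters, as did 3 of the 29 promoters found for the secreted-protein list and 0 of 29 for the neutrophil list. So did 2 of 25 for the acute-phase list and 2 of 18 for the coagulation list, and Fga stands on both of these. Stricter C/EBP strings were rarer: TTGCGCAA was in 0.164% of all promoters and in 0 of 29 of the secreted-protein list, and TTNNGCAAT in 1.93% and in 3 of 29. The C/EBP letters TTNNGCAA were in 9.56% of all promoters, in 10 of 29 of the secreted-protein list, 12 of 25 of the acute-phase list, 8 of 29 of the neutrophil list and 4 of 44 of the muscle list. The STAT letters TTCNNNGAA were in 7.02% of all promoters, 1 of 29 of the secreted-protein list, 7 of 25 of the acute-phase list and 6 of 29 of the neutrophil list. The FOXA letters TGTTTAC were in 3.17% of all promoters, 4 of 29, 0 of 25 and 2 of 29 of the same lists. A match is a description of letters and was not tested as a binding site.

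Alb had a signal of 1327 in the LLC-bearing lung, −1.2 in the control and 12.8 in the B16-bearing lung, a difference of at least 56.2-fold. Mup5 and Mup3, of the major urinary proteins secreted by liver, had 1293 and 830.2 against 33.7 and 2 in the control, or 38.4-fold and at least 35.2-fold. In the B16-bearing lung neither reached the floor. Serpina1b, Serpina1c and Serpina1e encode alpha-1-antitrypsin forms and had 694, 826 and 645 against 113, 163 and 107, or 6.16-fold, 5.05-fold and 6.02-fold. The Mup and Serpina1 probe sets are of a design shared within a gene family, so the members are not told apart. Apoa1, the main protein of HDL, had 167 against −62 (at least 7.08-fold), Pzp, a protease-binding globulin, had 140 against 24.7 (5.68-fold), and Kng1, kininogen, had 161.0 against 38.6 (4.17-fold). Apoc1, which lung macrophages can also express, was bright on both arrays at 267 and 112 (2.39-fold). Of the 17 genes, 7 were not above the floor in the control lung.

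Cps1, the first enzyme of the urea cycle, had 248 in the LLC-bearing lung, 49.7 in the control and 41.2 in the B16-bearing lung (5.00-fold). Cyp2c29, a liver cytochrome P450, had 73.5 against 17.8 (at least 3.12-fold), but the B16-bearing lung had 65.6. Cyp2e1, also expressed in lung, had 429 against 273 (0.65). Fga had 193 against 7.1 (at least 8.20-fold), and Fgg and Fgb, the other fibrinogen chains, had 59.1 and 47.6 against 3.2 and −2.1 (at least 2.50-fold and 2.02-fold). Every fibrinogen chain thus exceeded the floor in the LLC-bearing sample alone. Whether liver RNA or liver tissue entered the LLC-bearing sample was not tested. The counts over all probe sets without the liver and coagulation lists were 311 higher and 235 lower.

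Of 19 measured acute-phase genes, 17 were higher and 9 at least 2-fold higher (3.93% of all genes were), with a median of 0.85. In the control lung 9 of the 19 were not above the floor and could lie only on the higher side. With the floor at a signal of 100, 1 gene was higher by 2-fold. Without the genes that also stand on a liver list, 14 of 15 were higher and 6 at least 2-fold higher (median 0.77). Hpx, hemopexin, which binds heme, had a signal of 225 in the LLC-bearing lung, 12.5 in the control and 30.4 in the B16-bearing lung (at least 9.52-fold). Saa3, the serum amyloid A form also made outside the liver by macrophages and epithelium, had 183 against 19.2 (at least 7.76-fold), and it was bright in the B16-bearing lung as well, at 239. Saa2, mainly a liver form, had 97.0 against 8.1 (at least 4.11-fold), and only 15.1 in the B16-bearing lung. So both serum amyloid genes were high in the LLC-bearing lung, but Saa2 did not reach the floor in the B16-bearing lung. Orm2, an orosomucoid, had 73.6 against 19.2 (at least 3.12-fold). Socs3, a feedback inhibitor of STAT3 signalling, had 148 against 58.8 (2.51-fold) on its brightest probe set, with a log2 difference of 0.60 on the next. Hp, haptoglobin, which lung expresses strongly, differed little at 2248 against 1910 (0.24), and Lcn2, lipocalin 2, had 410.1 against 289 (0.51).

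Genes of neutrophils were higher as a group: 18 of 20 measured members lay above the control, 8 of them at least 2-fold (3.93% of all genes were), against 1 at least 2-fold lower, with a median of 0.74. S100a9 had a signal of 1684 in the LLC-bearing lung, 305 in the control and 866 in the B16-bearing lung (5.53-fold), and S100a8 had 1809.9, 485 and 1224 (3.73-fold). These genes were known as the subject of the study, so their direction is no independent evidence. Without them, 16 of 18 were higher, 6 at least 2-fold, with a median of 0.66. In the control lung 4 of the 20 were not above the floor and could lie only on the higher side. S100a8 and S100a9 were the only members of the list higher by 2-fold when the floor was at a signal of 100. Ncf4, a subunit of the NADPH oxidase, had 168 against 42.1 (3.98-fold). Il1r2, the decoy receptor for interleukin 1, had 87.4 against 17.4 (at least 3.70-fold). The granule genes Ltf (lactoferrin) and Mmp9 (gelatinase B) had 151 and 150.4 against 54.3 and 54, both 2.79-fold. These 4 genes had lower signals than S100a8 and S100a9 and lie where the spread between arrays is wide. Csf3r, the receptor for G-CSF, was at 346 and 205 (0.76) on its brightest probe set, at 285 and 108 (1.39) on another and at 109 and 1 (at least 4.62-fold) on the third. Padi4, an enzyme that citrullinates histones in neutrophils, went the other way, at 32.1 against 97.4 (−1.60).

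Genes of monocytes and macrophages gave 20 of 25 higher and 5 at least 2-fold higher (3.93% of all genes were), with a median of 0.35. With the floor at a signal of 100, 4 were higher by 2-fold. Ccr2, the receptor that brings inflammatory monocytes out of marrow, had a signal of 294 in the LLC-bearing lung, 46.8 in the control and 27.8 in the B16-bearing lung (6.27-fold). The adaptor Tyrobp (DAP12) had 706 against 305 (2.32-fold), the galactose lectin Lgals3 had 616 against 294 (2.09-fold), and the complement subunit C1qa had 213 against 88.6 (2.41-fold). C1qb, also on this list, had 117 against 143 (−0.29) on its brightest probe set and 110 against 53 (1.05) on another. Fcgr2b, the inhibitory IgG receptor, had 53.2 against 9.4 (at least 2.25-fold). By contrast, Lyz2, a lysozyme of macrophages and type 2 alveolar cells, was nearly level at 2966 and 2703 (0.13), and Csf1r, the receptor for M-CSF, had 361 against 224 (0.69). Chil3, a lectin abundant in alveolar macrophages, had 442 against 549.5 (−0.31). The list therefore held both genes that were several-fold higher and genes that differed little, and its summed signal was 11615 in the LLC-bearing, 9298 in the control and 8345 in the B16-bearing lung.

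Plac8, expressed in myeloid and other leukocytes, stood out among bright genes on none of these lists, at 1442 in the LLC-bearing lung, 304 in the control and 319.9 in the B16-bearing lung (4.74-fold). Lilr4b, an inhibitory receptor of myeloid cells, had 588 against 257 (2.29-fold). Further genes with a signal of at least 200 and a 2-fold difference were picked here after their values were seen. S100a4, a calcium-binding protein of motile cells including monocytes, had 278 in the LLC-bearing lung, 70.1 in the control and 42.5 in the B16-bearing lung (log2 difference 1.99). Ms4a6c, a membrane protein of the Ms4a family, had 325, 119 and 42.0 (1.45). Slfn4, a Schlafen gene of myeloid cells, had 383, 127 and 224 (1.60). Srgn, the core protein of granule proteoglycans in leukocytes, had 386, 164 and 138 (1.23). Lst1, a transcript of leukocytes, had 279, 123 and 89.0 (1.18). Pla2g7, the lipase that inactivates platelet-activating factor, had 263, 107 and 107 (1.29). Plac8, Lilr4b and these 6 genes were brighter in the LLC-bearing lung than in both other samples.

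MHC class II genes, which present antigen on macrophages, dendritic cells and B cells, were higher by small amounts: 11 of 12 lay above the control and 0 at 2-fold, with a median of 0.43 (0.36 to 0.46 over the processing alternatives, quantile normalization included). Cd74, the invariant chain, had 3100.2 against 2266 (0.45), H2-Aa had 1385 against 986 (0.49) and H2-Ea had 926 against 619 (0.58). The exception, H2-DMb2, was dim on both arrays, at 10.8 and 41.4. T and natural killer cell genes gave 8 of 13 higher and 0 at 2-fold in either direction (median 0.19).

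Among 13 chemokine genes 10 were higher, 2 of them at least 2-fold, where 3.93% of all genes were. Ccl8, a chemokine that attracts monocytes, had a signal of 117 in the LLC-bearing lung, 24.1 in the control and 15.9 in the B16-bearing lung (4.86-fold), and Ccl9 had 139, 59 and 71.6 (2.36-fold). Cx3cl1, fractalkine, a membrane-bound chemokine of endothelium and epithelium, was lower, at 49.1 against 109 (2.23-fold). Il1b, the inflammatory cytokine interleukin 1 beta, had 182 against 40.6 (4.49-fold), with 48.9 in the B16-bearing lung. On the list of TNF and NF-kappaB pathway genes 17 of 23 were higher and 3 at least 2-fold (median 0.25), again beside 3.93% of all genes. Of the 3, Myd88, the adaptor of Toll-like and interleukin 1 receptors, had 109.8 against 52.9 (2.08-fold). On that of interleukins and their receptors 17 of 26 were higher, 3 at least 2-fold and 1 lower by 2-fold (median 0.30), beside 3.93% and 2.97% of all genes. With the floor at a signal of 100, 0 chemokine and 0 TNF-pathway genes remained at 2-fold.

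**Figure D3:**
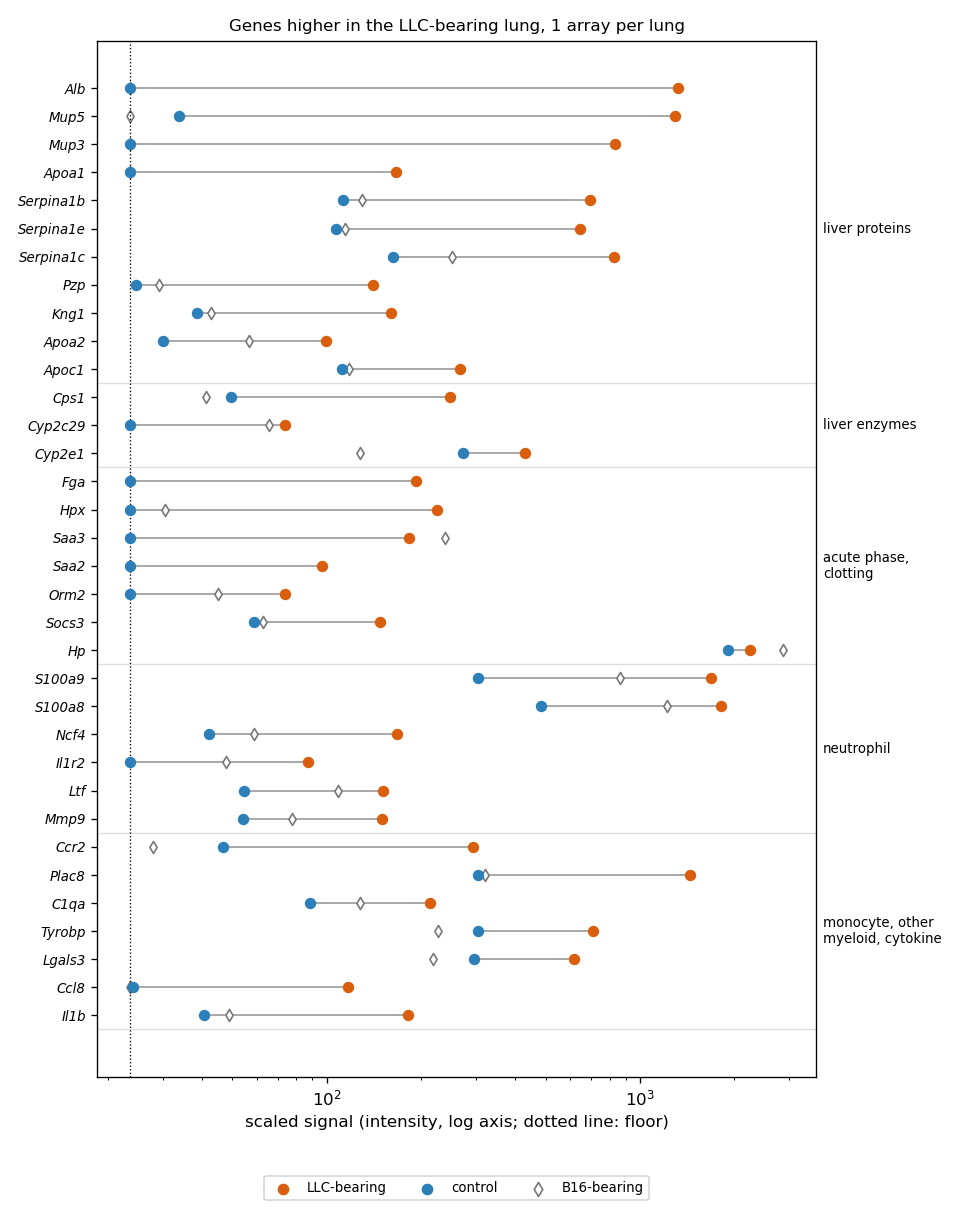
Scaled signal (x axis, log scale) of genes that were higher in the LLC-bearing lung, 1 point per array for the LLC-bearing, control and B16-bearing lung, with the floor of 23.6 as a dotted line and values under it drawn at it (a B16-bearing diamond at the floor can lie hidden behind the control point). Alb, Mup3 and Hpx lie at the floor in the control lung, and Ccr2 and Plac8 in the B16-bearing lung (27.8 and 319.9) are near or below their control values, while S100a8 and S100a9 in the B16-bearing lung lie between the other samples.

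Interferon-induced genes gave 20 of 25 higher, 5 of them by 2-fold, and 2 lower by 2-fold, with a median of 0.29. Of all genes 3.93% were higher and 2.97% lower by 2-fold. Only 1 was higher by 2-fold with the floor at a signal of 100, and 1 with log2(value + 32). Iigp1 and Igtp, GTPases induced by interferon gamma, had 242 and 189.9 in the LLC-bearing lung against control values of 111 and 86.6 (2.18-fold and 2.19-fold), and 263 and 189.7 in the B16-bearing lung. Ifi204, of the interferon-inducible p200 family, had 98.4 against 40 (2.46-fold). The members did not all go one way: Ifit2, an antiviral protein induced by type I interferon, had 26.7 against 63.3 (−1.25). Ifngr1, a subunit of the interferon gamma receptor, had 149.9 against 10.2 (at least 6.35-fold), with 80.7 in the B16-bearing lung.

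Genes that respond to glucocorticoids gave 19 of 25 higher and 5 at least 2-fold higher, where 3.93% of all genes were. Their median was 0.14, so that a few members stood far above the rest. Fkbp5, a chaperone of the glucocorticoid receptor, had a signal of 192 in the LLC-bearing lung, 24.6 in the control and 323 in the B16-bearing lung (7.80-fold). Cdkn1a, the cell cycle inhibitor p21, had 369.7, 153 and 738 (2.42-fold), and Zbtb16, the transcription factor PLZF, had 629.5, 308 and 859 (2.05-fold). For these 3 genes the B16-bearing lung was the highest of the 3 samples. The 2 other genes at 2-fold also stand on other lists, S100a8 on the neutrophil list and Pck1, an enzyme of gluconeogenesis, on the hepatocyte list, and both were highest in the LLC-bearing lung (Pck1 at 62.8, against 30.2 in the control and 32.7 in the B16-bearing lung). A floor at a signal of 100 gave 3 genes higher by 2-fold. The other Cdkn1a probe set had 24.5 and 0.3 in the LLC-bearing and control lung, near or under the floor. Of 14 clock genes 10 were lower (median −0.31), and Dbp, a clock output factor, had 80.4 against 186 (2.32-fold lower). The hour at which lungs were taken is not given in the labels used here.

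Of 16 keratinocyte and squamous genes, 4 were higher and 1 lower by 2-fold or more (median 0.20), beside 3.93% and 2.97% of all genes. With the floor at a signal of 100, 1 was higher by 2-fold. Sprr2i, a cornified envelope protein, had 221 against 33.2 (6.65-fold) and Krt6a, a stress keratin, had 161 against 26.7 (6.05-fold), although its other probe set did not differ by as much. Both were also high in the B16-bearing lung, at 268 and 120. Defb2, an antimicrobial defensin of epithelium, had 100.1 against 24.2 (4.14-fold). Of 7 melanocyte genes, Dct, an enzyme of melanin synthesis, had 196 in the LLC-bearing lung and was below the floor in both other samples (at least 8.30-fold), while Tyr, tyrosinase, had 30.0 and 20.9 and Pmel was lower, at 40.7 against 85.9 (−1.08). Of the remaining bright genes, Trim46, a microtubule protein of neurons, and Rgs14, a regulator of G protein signalling, had 258 and 299 against 53.1 and 61.9 (4.85-fold and 4.84-fold).

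Heart and skeletal muscle genes formed the largest group of lower genes. Of 27 measured members 21 were lower and 13 at least 2-fold lower, against 2.97% of all genes, with 0 at least 2-fold higher and a median of −0.84. In the LLC-bearing lung 7 of the 27 were not above the floor and could lie only on the lower side. Their summed signal was 2508 in the LLC-bearing, 4663 in the control and 2862 in the B16-bearing lung. Raising the floor to a signal of 100 left 4 genes lower by 2-fold. Myh6, the alpha myosin heavy chain of heart, had 30.4 in the LLC-bearing lung, 233 in the control and 67.9 in the B16-bearing lung (7.65-fold lower). Myl7 and Myl4, the atrial myosin light chains, had 187 and 150.1 against 611 and 436.5 (3.27-fold and 2.91-fold lower). Tnnc1 and Tnnt2, subunits of troponin, had 22.1 and 47.1 against 147 and 167 (at least 6.22-fold and 3.55-fold lower). Atp2a2, the calcium pump SERCA2, had 13.3 against 109 (at least 4.61-fold lower). These genes were lower in both tumour-bearing samples than in the control. Pvalb, a calcium buffer of fast muscle, did not reach the floor in the LLC-bearing sample against 276 in the control (at least 11.7-fold lower), but had 242 in the B16-bearing lung. Other skeletal muscle members were mixed. Atp2a1 had 43.7 against 94.1 (−1.11), but Mylpf had 43.4 against 42.1 (0.04). Tnnt1 differed by 0.24 on its brightest probe set and by −0.12 on the next, and Tnnc2 by −0.49 and 0.57. The atrial peptide Nppa had 171 against 251 (−0.56) and Actc1, cardiac actin, had 505 against 670.2 (−0.41) on its brightest probe set and 112 against 312 (−1.48) on another. Of 12 smooth muscle genes 9 were lower, 0 by 2-fold (median −0.14). How much heart or vein muscle each lung sample held was not tested.

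B lymphocyte genes gave 11 of 17 lower and 5 at least 2-fold lower (2.97% of all genes were), with 0 at least 2-fold higher and a median of −0.27. In the LLC-bearing lung 3 of the 17 were not above the floor and could lie only on the lower side. Without the MHC class II genes on this list 11 of 14 were lower (median −0.40). Fcer2a, the low-affinity IgE receptor CD23, was below the floor in both tumour-bearing lungs and had 119.9 in the control (at least 5.08-fold lower). Cd79a, a signalling chain of the B cell receptor, had 23.9 against 111 (4.67-fold lower). Blnk, Pou2af1 and Cd37, an adaptor, a transcription coactivator and a tetraspanin of B cells, had 57.6, 63.9 and 72 in the control and 21.6, 27.3 and 33.0 in the LLC-bearing lung (at least 2.44-fold, 2.34-fold and 2.18-fold lower). Brighter members differed by less than 2-fold: Ms4a1 (CD20) had 212 against 294 (−0.47), Cd79b had 120.3 against 179 (−0.58) and Ighm, the IgM heavy chain, had 575 against 607 (−0.08) on its brightest probe set and 103 against 150.2 (−0.54) on the next. Among the 6 higher members, Pax5 had 288 against 250 (0.21) and Btk had 48.8 against 38.9 (0.33). The summed signal of the list, Cd74 included, was 5675 in the LLC-bearing, 5219 in the control and 5373 in the B16-bearing lung. With the floor at a signal of 100, 0 B cell genes remained at 2-fold. Igkv6-23, an immunoglobulin light chain variable gene on a shared-design probe set, had 437 against 944 (2.16-fold lower).

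Airway and detoxification genes held a few large differences among many small ones. Cbr2, a carbonyl reductase strongly expressed in club cells and alveolar epithelium, had a signal of 52.5 in the LLC-bearing lung, 782 in the control and 70.0 in the B16-bearing lung (14.9-fold lower). No other lower fold or bound was larger, but genes given as bounds, such as Pvalb and Daglb, may be lower by more. Of 20 airway genes 15 were lower, but only Cbr2 and Foxa2, a transcription factor of airway epithelium, by 2-fold, and 1 gene was higher by 2-fold (median −0.18). Over all genes 2.97% were lower and 3.93% higher, so these few genes say little about the list. Foxa2 was below the floor in both tumour-bearing lungs against 112 in the control (at least 4.74-fold lower). Cyp2f2, a P450 that marks club cells, was level at 1929 and 1883 (0.03). Of 31 xenobiotic and glutathione enzymes 19 were lower and 3 by 2-fold (median −0.17) against 2.97% of all genes, and 1 was higher by 2-fold (Gss, glutathione synthetase, on its brightest probe set alone). The 3 lower genes were Cbr2, Gsr and Gsta4, with Gsr, glutathione reductase, at 41.0 against 124 (3.02-fold lower) and Gsta4, a glutathione transferase, at 18.1 against 80.1 (at least 3.39-fold lower).

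Other genes with large lower signals belonged to no common list. Daglb, a lipase that makes endocannabinoids, had 3.03 in the LLC-bearing lung against a control value of 199 (at least 8.43-fold lower), but 169 in the B16-bearing lung. Ptprn, a protein of secretory vesicles in neuroendocrine cells, had 15.5 against 185.5 (at least 7.86-fold lower), and Matn2, an extracellular matrix protein, had 26.9 against 186 (6.91-fold lower). Strn4, a striatin, and Dhps, which makes hypusine, were below the floor against 170.1 and 145 (at least 7.21-fold and 6.15-fold lower). Igfbp7, a secreted binding protein of vessels, had 104 against 344 (3.32-fold lower), and Git1, a signalling scaffold, had 111 against 399 (3.60-fold lower). Both were as bright in the B16-bearing lung as in the control or brighter, at 358 and 515.

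**Figure D4:**
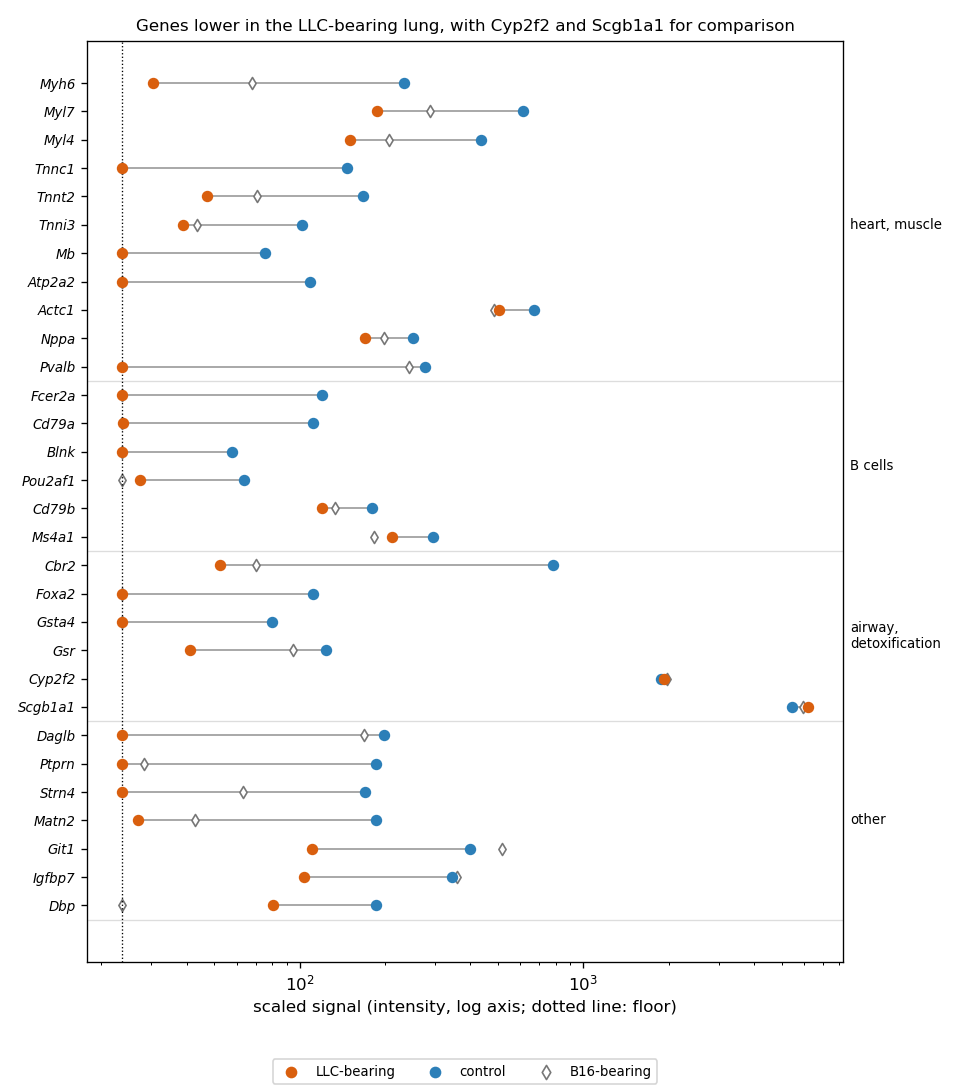
Scaled signal (x axis, log scale) of genes that were lower in the LLC-bearing lung, 1 point per array for the LLC-bearing, control and B16-bearing lung, with the floor of 23.6 as a dotted line and values under it drawn at it (a B16-bearing diamond at the floor can lie hidden behind the LLC-bearing point). Cyp2f2 and Scgb1a1 were not lower and are shown for comparison. Cbr2, Myh6 and Cd79a are low in both tumour-bearing lungs, whereas Pvalb (242) and Igfbp7 (358) in the B16-bearing lung lie near the control.

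Lists of housekeeping and stress pathways lay near 0. Medians were 0.06 for 22 ribosomal protein genes (−0.02 to 0.06 over the alternatives), −0.04 for 41 respiratory chain genes, −0.06 for 32 proteasome genes, 0.02 for 22 heat shock genes (−0.03 to 0.02) and 0.00 for 21 genes of hypoxia and glycolysis (−0.03 to 0.06). Of 23 immediate early genes, which respond within minutes to a stimulus, 0 reached 2-fold (median 0.04). Cell cycle genes gave 16 of 22 higher and 0 at 2-fold (median 0.19). The 33 genes of the VEGF and TGF-beta pathways had a median of −0.06 with 0 at 2-fold. Of 12 matrix metalloproteinases and inhibitors 1 was at least 2-fold higher and 1 lower, beside 3.93% and 2.97% of all genes. Among markers of further tissues, 7 of 10 adipocyte genes were higher but 0 reached 2-fold (median 0.07). Of 9 neuron and glia genes 1 was higher and 3 lower by 2-fold, beside the same shares of all genes. Their median of −0.06 became 0.016 with a lower floor. Platelet and pancreas lists had 4 measured genes each.

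Probe sets annotated to the same gene gave a check within the arrays, where both sets share the RNA sample and the array. Whether they also hold probes in common was not checked, so the sets may not be independent. Of 991 genes with at least 2 measured probe sets, 23 had a brightest set at least 2-fold higher. In 19 of the 23 the next brightest set lay on the same side, where 45.9% of all such sets were higher. In 10 it was at least 2-fold higher too, against 4.04% of all such sets. Of 14 genes whose brightest set was at least 2-fold lower, the next set was on the same side in 9, where 54.1% of all such sets were lower. It was at least 2-fold lower in 4, against 3.03%. With a brightest signal of 200 or more, all 8 higher genes and both lower genes kept their side, and 5 and 1 reached 2-fold. Of all second sets in that band 44.9% were higher and 55.1% lower. Under 100 only 5 of 10 lower genes kept their side, where 50.3% of all second sets were lower. Over all 991 genes both sets had the same sign in 56.0%. Across genes, which are not independent replicates, Pearson's r between the differences of both sets was 0.73 (Spearman's rho 0.35) where the dimmer set had a signal of 200 or more (157 genes), and 0.19 (rho 0.13) where it was under 100 (617 genes).

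There were 10 genes with every measured probe set higher by 2-fold or more, which included the liver genes Hpx, Mup3, Plg, Saa2 and Serpina1c, the interferon genes Ifi204 and Iigp1, and Il1r2. The second set of Mup3 had 708 in the LLC-bearing lung and 27.4 in normal lung (4.69), that of Serpina1c 373 and −0.9 (3.98), and that of Hpx 109 and 1.5 (2.21). That of Il1r2 had 79.9 and 16.1 (1.76), and that of Iigp1 had 75.3 and 19.1 (1.67). These genes were picked because all their measured sets passed 2-fold, so the agreement of their sets is no separate support for their lists. The sets of Mup3 and Serpina1c may read related genes. Hpx, Ifi204, Iigp1 and Il1r2 also have a set of a shared design among those measured. The second sets of Serpina1c, Hpx, Il1r2 and Iigp1 were under the floor in the control lung, so they counted as measured through the LLC-bearing array alone. The brightest sets of Hpx, Il1r2, Mup3, Plg and Saa2 were under the floor there too. Such sets could lie only on the higher side. In 3 genes all sets were at least 2-fold lower: Myl4, whose second set had 115 against 340 (−1.56), Chst2, a sulfotransferase, with 7.38 against 69.8 (−1.56), and Rpl22, a ribosomal protein, with 29.2 against 65.6 (−1.17).

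Other genes had probe sets that disagreed. Krt6a was higher by 2.60 on its brightest set and by 0.06 on the next, and Gss by 1.83 and −0.11. Vcp, an ATPase of protein turnover, differed by 0.06 on its brightest set and by −2.49 on the next, and Ptafr, the receptor for platelet-activating factor, by −1.65 and 0.88. The second sets of Zbtb16, Pvalb and Matn2 were below the floor on both arrays and could not check the brightest set.

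**Figure D5:**
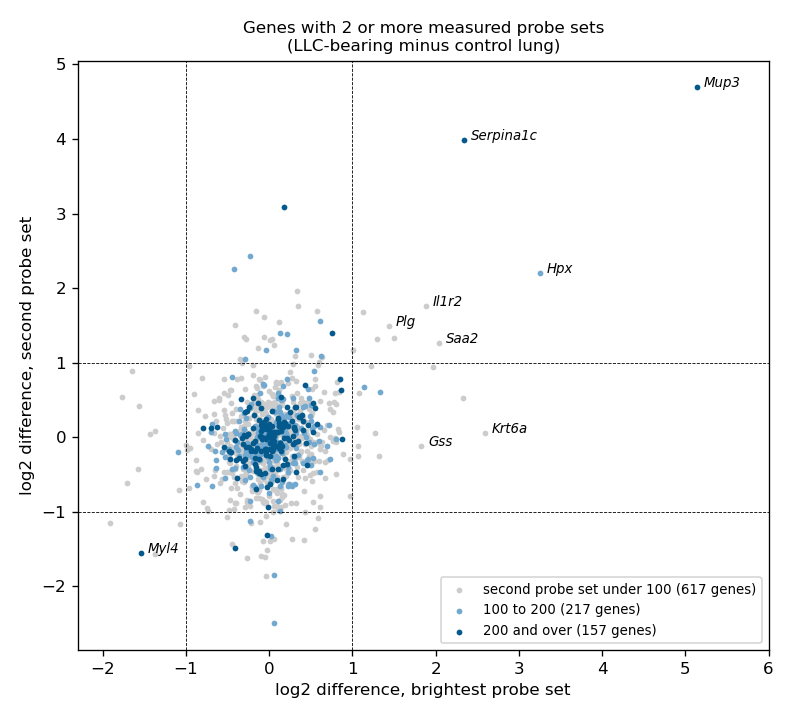
Log2 difference of the LLC-bearing from the control lung on the brightest probe set of a gene (x axis) and on its next brightest (y axis) for 991 genes, 1 array per side. Colours give the signal of the second set and dashed lines mark 2-fold. Mup3, Serpina1c and Hpx lie past 2-fold on both axes at the upper right and Myl4 at the lower left, while Krt6a (2.60 and 0.06) is past 2-fold on 1 axis only.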

How the data were processed

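The authors deposited 1 linear intensity for each probe set on each array, and some are below 0, which shows that background had been subtracted. Per the labels' protocols, TRIzol RNA from frozen lung was made into biotin-labelled cRNA by the manufacturer's procedure. For the array software, the probe summary and any scaling before deposit, the method is not given in the sources used here. Arrays have no read depth, and their number (1 per group) limits the precision.

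Each array was multiplied by 1 factor (1.01 for the LLC-bearing, 0.987 for the B16-bearing and 1 for the control lung) chosen so that the brighter probe sets had a median log2 ratio of 0 to the control array. The floor was the 40th percentile of all scaled values of the 3 arrays. The floor is no detection call. Symbols were those of GEO's platform annotation: 10833 probe sets have 1 symbol, 396 several and 1193 none. By gene ID 10817 were found in RefSeq (GRCm38.p6). Those without a unique symbol were counted and not named, and of them 52 were at least 2-fold higher and 25 lower.

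The 39 gene lists (1136 genes, 689 measured, 63 in more than 1 list) and the rule for named genes were chosen with earlier results of these data known. The rule takes the 6 largest differences each way in each band of signal from 100 up, genes whose measured probe sets (2 or more) are all at least 2-fold the same way, up to 5 genes of each list with a share of 2-fold genes at least 3 times that of all genes, and markers of lung, blood, liver, heart and melanocytes. It gave 92 genes. Further list members, on either side of the control, and the genes said to be picked after their values were seen fall outside it. Such list members include Pzp, Kng1, Apoc1, Socs3 and Mmp9 among the higher and Padi4, Cx3cl1, Ifit2 and Dbp among the lower genes, all chosen after their values were seen. List medians use values at the floor, so they depend on it where many members are below it. Motifs were searched in RefSeq promoters, with other strings for C/EBP, FOXA and STAT searched as well; longer strings for HNF1, MEF2 and NF-kappaB were also looked at and are not used.

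Python 3.11.15, numpy 2.4.6, pandas 2.3.3 and matplotlib 3.10.9 were used, and the steps were tested on simulated arrays. Alternatives changed the floor, the scaling, the log transform, the probe sets used and the probe set that stands for a gene. Subsets of the acute-phase, neutrophil and B lymphocyte lists were added after the data were seen. A limit on signal for muscle genes, also added then, is not used, because genes pass it through the array where they are high.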

Additional observations from a re-analysis of the deposited data

How the results depend on the processing

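The number of 2-fold probe sets depended on the floor. With the floor at the 60th percentile 93 were higher and 48 lower, with the floor at a signal of 100 there were 56 and 23, and with log2(value + 32) in place of a floor 220 and 151. The other alternatives stayed within 1.5 times of the reported counts, from 251 to 407 higher and from 192 to 316 lower. The robust SD stayed between 0.26 and 0.39. Under each of the 3 other scalings all 92 named genes and 37 list medians moved by less than 0.37, the robust SD. Changes of sign among them were of values near 0, such as Scgb1a1 (−0.08 under quantile normalization). The floor and the log transform moved many named genes. Of those measured, 48 moved and 31 did not at the 60th percentile, and 41 and 28 at a floor of 100. With log2(value + 32) 41 moved and 51 did not, and with the floor at the 20th percentile of positive values 29 and 63. Foxa2 ran from −2.64 to −0.16 over the alternatives and Cyp2c29 from 0.04 to 2.03, whereas S100a9 ran from 2.35 to 2.47. With the floor at 100, 2-fold genes became fewer on most lists (hepatocyte secreted 14 to 7, acute-phase 9 to 1, neutrophil 8 to 2, interferon-induced 5 to 1, glucocorticoid 5 to 3, muscle 13 to 4). At the 60th-percentile floor, medians became 1.26 for hepatocyte secreted proteins and 0.21 for coagulation factors. The median of the 9 neuron and glia genes turned from −0.06 to 0.016 with the floor at the 20th percentile of positive values. No paired analysis was possible because each group has 1 array. No replicate could be left out for the same reason.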
